A study of Mus musculus with 6 samples.

Results

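Schwann cells wrap and nourish the axons of peripheral nerves, and 8 genes that mark them or build their myelin were followed across 6 mouse skin libraries. The genes were Mbp, Pmp22, Prx, S100b, Ngfr, Cdh19, Egfl8 and Erbb3, taken by symbol, and all 8 were among the 14484 genes of the deposited count table. The libraries were RNA sequencing of whole skin, which the series design calls nevi, benign growths of pigment cells. Of these, 3 came from ATR mD/mD mice (ATR fl/fl, whose ATR lacks a stretch of its kinase domain) and 3 from ATR WT mice (ATR +/+). Both groups carried the Braf CA/+ allele, an activatable form of the kinase gene Braf, together with Cre, and both were on the C57BL/6-129J background. The promoter that drives Cre, the age of the mice and whether libraries of a group came from separate mice are not given in the labels, so p-values measure only the spread between these samples. Cells in which Cre was not active keep an intact Atr, and whole skin holds many cell types.

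As background, a myelinating Schwann cell wraps its membrane around a single axon, and the wraps are held compact by proteins that include myelin basic protein (Mbp) and Pmp22. Periaxin (Prx) links the outer Schwann cell membrane to the surrounding basal lamina. Neuregulin on the axon signals to Schwann cells through the receptor pair ErbB2 and ErbB3, and the transcription factor Sox10 drives the lineage and, with Egr2, the myelin genes. Schwann cells and melanocytes both derive from the neural crest, so Sox10, Erbb3 and S100b are also transcribed in pigment cells. In skin, Pmp22 is made by fibroblasts, Ngfr by hair follicle cells, S100b by fat cells and Prx by some blood vessels as well, so several of the 8 are not exclusive to nerve.

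The libraries held 34723600, 38565590 and 35642215 gene counts in ATR mD/mD 1, 2 and 3, against 39297160, 42185287 and 46847751 in ATR WT 1, 2 and 3. Hair genes split them across genotypes. The mean log2 CPM (CPM is the count scaled to the library size) of 26 hair follicle and hair shaft genes, called the hair level here, was -0.54, 2.05 and 7.37 in ATR mD/mD 1, 2 and 3 and 1.69, 7.12 and 7.43 in ATR WT 1, 2 and 3. Thus 3 libraries lay above 7 (ATR mD/mD 3, ATR WT 2 and ATR WT 3) and 3 below 3. Since this level was measured from the libraries, it defines no group and no test was made on it. Y-linked genes were high in ATR mD/mD 2, ATR mD/mD 3 and ATR WT 1, with a mean of 5.17, 5.17 and 4.75 log2 CPM, and between -4.04 and -3.61 in the other libraries. Atr itself was at 22.6 ± 2.00 CPM in ATR mD/mD and 22.1 ± 3.87 CPM in ATR WT (SD, n = 3 each), a count over the whole gene that does not check the deletion.

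The data hold Schwann cell transcripts in every library. Mag, the myelin-associated glycoprotein, was at 3.60, 3.99 and 1.95 CPM in ATR mD/mD 1, 2 and 3 and at 4.69, 3.68 and 2.50 CPM in ATR WT 1, 2 and 3. All 8 genes had counts in all 6 libraries, the lowest being 82 counts of Cdh19 in ATR mD/mD 3. Per kilobase of annotated exon (GENCODE M21, union of all exons of a gene), Pmp22 was the most abundant and Cdh19 the least. Pmp22 averaged 85.1 ± 21.7 CPM per kb in ATR mD/mD and 91.1 ± 14.8 in ATR WT (SD, n = 3 each). Mbp followed at 13.9 ± 6.55 in ATR mD/mD and 14.7 ± 6.51 CPM per kb in ATR WT, and Cdh19 was at 0.949 ± 0.352 and 1.23 ± 0.605 in the same order. Between them came, by mean, S100b, Egfl8, Ngfr, Prx and Erbb3. From Mbp to Erbb3 the libraries spanned 2.89 to 22.1 CPM per kb and the ranges of neighbours in that order overlapped, whereas Pmp22 lay above and Cdh19 below all the others in every library.

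Promoters are shown for a gene whose level ran with Mbp (Prx) and for a pair whose level did not (S100b and Egfl8). Each is the 250 bases before the transcription start in RefSeq, GRCm38.p6, read 5′ to 3′ on the strand of the gene. Prx lies at chr7:27499074-27499323 on the plus strand, S100b at chr10:76253586-76253835 on the plus strand and Egfl8 at chr17:34615972-34616221 on the minus strand. Capitals mark a match to a SOX-type motif.
Prx: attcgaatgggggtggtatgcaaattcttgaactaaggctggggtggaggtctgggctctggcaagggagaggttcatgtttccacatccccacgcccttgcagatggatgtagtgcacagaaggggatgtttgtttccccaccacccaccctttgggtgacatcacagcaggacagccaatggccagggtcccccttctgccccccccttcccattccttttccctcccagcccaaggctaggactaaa
S100b: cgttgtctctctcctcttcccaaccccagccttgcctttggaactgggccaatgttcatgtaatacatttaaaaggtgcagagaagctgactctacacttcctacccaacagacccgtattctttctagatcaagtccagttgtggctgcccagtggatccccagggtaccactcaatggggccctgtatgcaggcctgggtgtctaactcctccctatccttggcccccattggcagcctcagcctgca
Egfl8: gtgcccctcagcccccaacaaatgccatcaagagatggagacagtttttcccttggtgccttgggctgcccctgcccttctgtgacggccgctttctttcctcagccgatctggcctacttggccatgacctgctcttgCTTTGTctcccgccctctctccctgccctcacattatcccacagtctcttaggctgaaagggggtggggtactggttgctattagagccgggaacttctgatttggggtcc
The letters ACAAAG and ACAATG (SOX-type) and GCGTGGGCG (EGR-type) were searched on both strands. Egfl8 held 1 SOX-type match, written CTTTGT on this strand, and Prx and S100b held 0, while none of the 3 held the EGR-type letters. Of 32851 such windows in RefSeq, 25.2% held a SOX-type match and 0.536% an EGR-type match. Such a match is a description of the letters and not a binding site.

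No Schwann cell or myelin gene passed the test between genotypes. Of the 8, 0 had an adjusted p under 0.05 (edgeR quasi-likelihood, Benjamini-Hochberg over 14484 genes), against 0.0483% of all genes. At an unadjusted p under 0.05 there were 0 as well, against 1.66% of all genes, and DESeq2 and limma-voom also called 0. In none of the 8 did the 3 ATR mD/mD libraries lie wholly below or above the 3 ATR WT libraries, which they did in 4.84% of all genes. All 8 fitted log2 fold changes were below 0, with a median of -0.11 against 0.0070 for all genes, but in 7 of the 8 the change was smaller than its standard error (SE). With 1 library left out, the median ran from -0.39 (without ATR mD/mD 2) to 0.022 (without ATR mD/mD 3). Whether a lower level would mean fewer cells of a type or less RNA per cell cannot be told apart in whole skin.

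**Figure D1:**
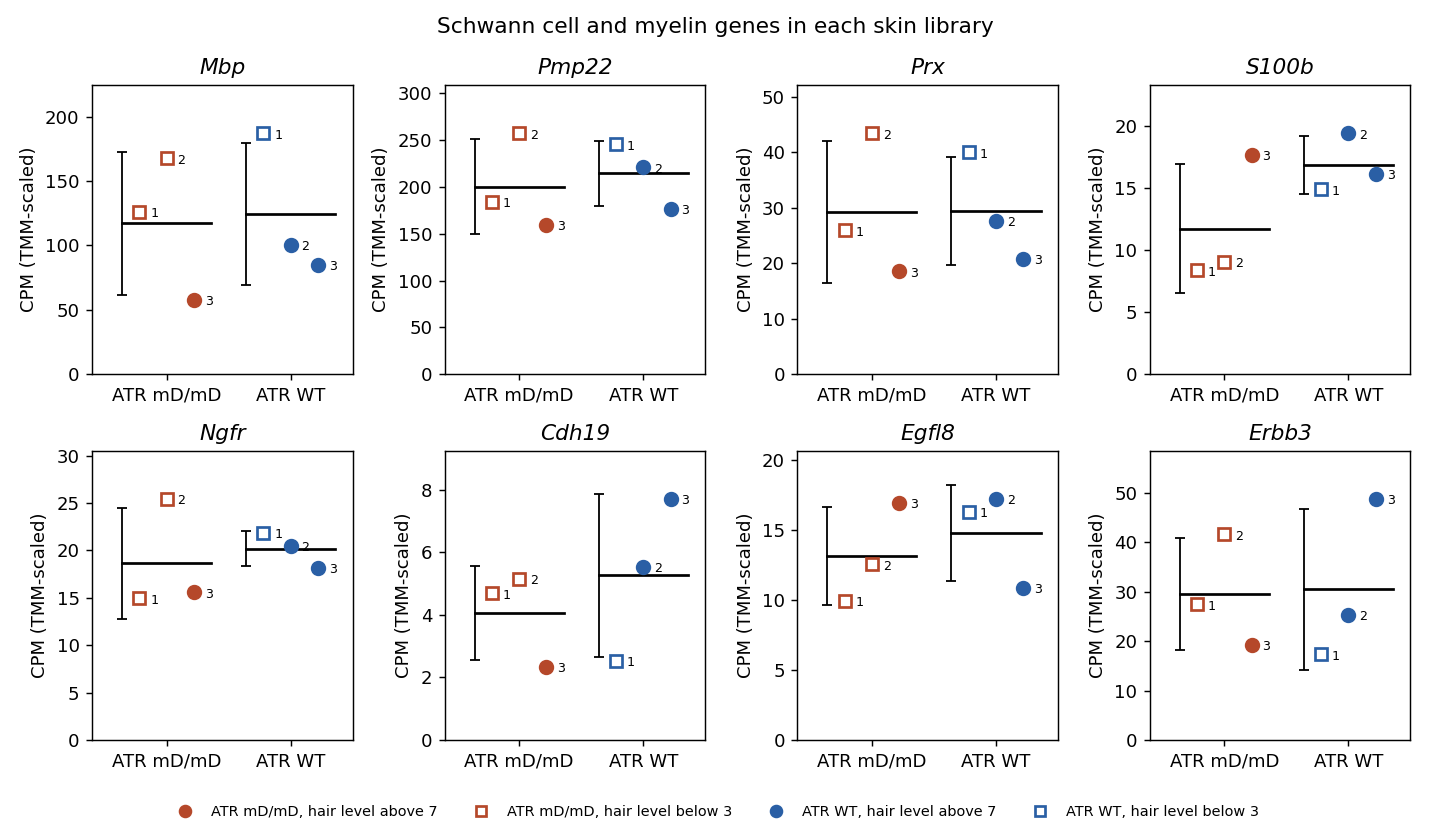
Level of each of the 8 genes in CPM (y axis) in the ATR mD/mD and ATR WT libraries, numbered as replicates 1 to 3; filled circles are libraries with a hair level above 7, open squares those below 3, lines are means and bars SD. The groups overlap in every panel, and Mbp runs from 57.9 CPM in ATR mD/mD 3 to 187 CPM in ATR WT 1.

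Of the 3 structural myelin genes among the 8, which are Mbp, Prx and Pmp22, Mbp varied most between libraries. Its genotype means were close. Mbp (chromosome 18, 82475146 to 82585637, plus strand, mm10) was at 126, 168 and 57.9 CPM in ATR mD/mD 1, 2 and 3 and at 187, 101 and 84.9 CPM in ATR WT 1, 2 and 3. The 3 libraries with a hair level above 7 were the 3 lowest for Mbp, at 57.9 to 101 CPM, and the other 3 were at 126 to 187 CPM. The means were 117 ± 55.5 CPM in ATR mD/mD and 124 ± 55.2 CPM in ATR WT (SD, n = 3 each), a log2 fold change of -0.08 (SE 0.453; edgeR adjusted p = 0.9999). Leaving out ATR WT 1 gave 0.35 and leaving out ATR mD/mD 2 gave -0.43, so its sign rested on single libraries. With the hair level as a covariate over all libraries, the change was -0.51 (SE 0.25; edgeR unadjusted p = 0.0802, adjusted p = 0.993). The count covers the whole gene, including the golli transcripts that other cells make from an upstream start.

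Prx, the periaxin gene (chromosome 7, 27499324 to 27520214, plus strand), was at 25.9, 43.5 and 18.5 CPM in ATR mD/mD 1, 2 and 3 and at 40.0, 27.6 and 20.8 CPM in ATR WT 1, 2 and 3. ATR mD/mD 2 and ATR WT 1 were the highest libraries, ATR mD/mD 3 the lowest, and the genotypes overlapped. The log2 fold change was -0.01 (SE 0.37; edgeR adjusted p = 0.9999).
Pmp22, a tetraspan membrane protein whose dosage is altered in hereditary neuropathy (chromosome 11, 63128982 to 63159547, plus strand), was at 184, 258 and 159 CPM in ATR mD/mD 1, 2 and 3 and at 246, 221 and 177 CPM in ATR WT 1, 2 and 3. It varied the least of the 8, by 1.62-fold between the lowest and the highest library. Its log2 fold change was -0.10 (SE 0.225; edgeR adjusted p = 0.9999). RefSeq lists several starts for Pmp22, and a count over the gene does not separate them.

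Prx kept closer to a fixed proportion of Mbp than the other members did, although both moved several-fold between libraries. The ratio of Prx to Mbp in CPM was 0.205, 0.259 and 0.320 in ATR mD/mD 1, 2 and 3 and 0.214, 0.274 and 0.245 in ATR WT 1, 2 and 3. The highest ratio was 1.56 times the lowest, whereas Mbp itself spanned 3.24-fold and Prx 2.35-fold. For Pmp22 the ratio to Mbp ran from 1.46 to 2.75 in ATR mD/mD and from 1.31 to 2.19 in ATR WT, 2.10-fold in all, so Pmp22 moved the same way as Mbp over a narrower range. The ratio to Mbp spanned 2.31-fold for Ngfr, close to Pmp22, and 3.91-fold for Egfl8. It spanned 5.66-fold for S100b, 6.70-fold for Cdh19 and 6.19-fold for Erbb3. Over the 28 pairs of members, the smallest root mean square difference of centred log2 CPM was 0.112, between Pmp22 and Ngfr, and the largest was 0.925, between Mbp and S100b. Cdh19 and Erbb3 differed by 0.284 and S100b and Egfl8 by 0.331.

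**Figure D2:**
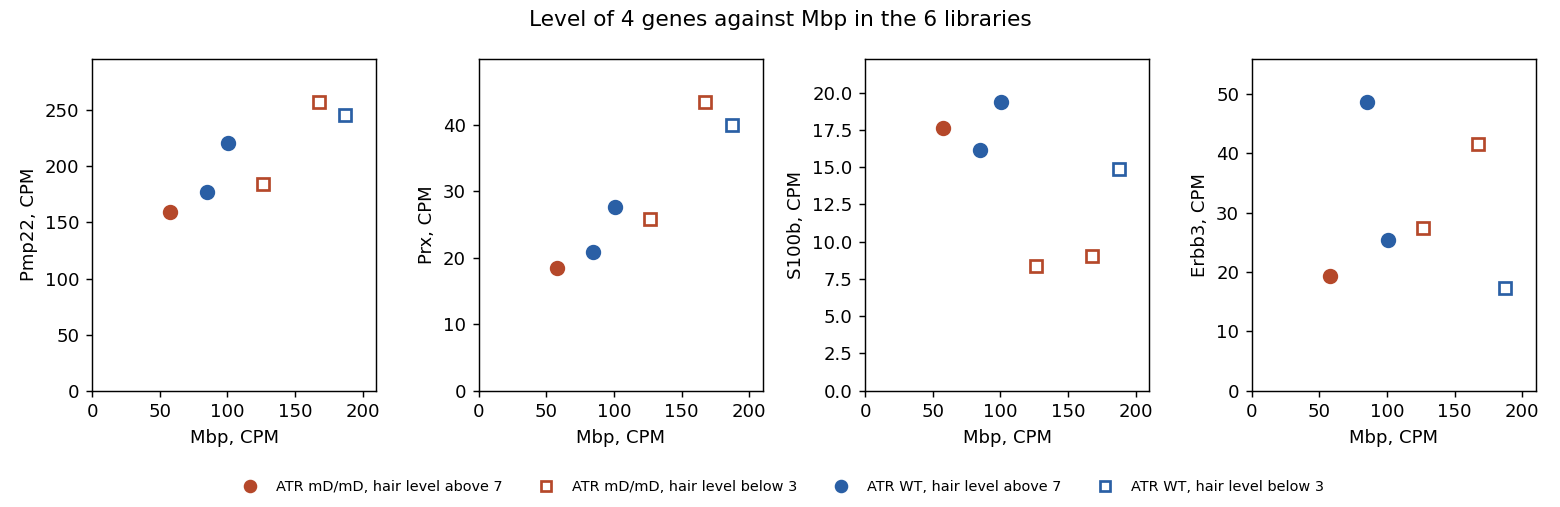
CPM of Pmp22, Prx, S100b and Erbb3 (y axes) against CPM of Mbp (x axis) in the 6 libraries; colours are genotypes, filled circles a hair level above 7 and open squares one below 3. Pmp22 and Prx climb with Mbp, with the highest ratio 2.10 and 1.56 times the lowest, whereas the points of S100b and Erbb3 scatter.

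Among the receptors, Erbb3 differed more within each genotype than between them. Erbb3 (chromosome 10, 128567523 to 128589652, minus strand), which binds neuregulin, was at 27.5, 41.6 and 19.3 CPM in ATR mD/mD 1, 2 and 3 and at 17.4, 25.4 and 48.7 CPM in ATR WT 1, 2 and 3. The highest and the lowest library were both ATR WT. The log2 fold change was -0.05 (SE 0.438; edgeR adjusted p = 0.9999), with 0.45 when ATR WT 3 was left out and -0.38 when ATR mD/mD 2 was. Its partner Erbb2, which epidermal cells express too, was at 141 ± 9.35 CPM in ATR mD/mD and 140 ± 10.6 CPM in ATR WT (SD, n = 3 each), with a log2 fold change of 0.01 (SE 0.127). Nrg1, the main axonal ligand, was not analysed here.
Ngfr (chromosome 11, 95568818 to 95587735, minus strand), the low-affinity neurotrophin receptor p75, was at 15.0, 25.4 and 15.6 CPM in ATR mD/mD 1, 2 and 3 and at 21.9, 20.5 and 18.2 CPM in ATR WT 1, 2 and 3. ATR mD/mD 2 was the highest of all libraries and the other ATR mD/mD libraries the lowest, so the groups overlapped. The log2 fold change was -0.11 (SE 0.237; edgeR adjusted p = 0.9999).

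In the fit with all libraries and no covariate, S100b showed the largest fitted difference of the 8. With the hair level as a covariate its change was -0.34 (SE 0.203), and that of Mbp was larger, at -0.51 (SE 0.25). S100b (chromosome 10, 76253853 to 76261159, plus strand), a calcium-binding protein of glia, was at 8.35, 9.04 and 17.7 CPM in ATR mD/mD 1, 2 and 3 and at 14.9, 19.4 and 16.1 CPM in ATR WT 1, 2 and 3. ATR mD/mD 1 and 2 were below every ATR WT library, and ATR mD/mD 3 lay among them. The means were 11.7 ± 5.19 CPM in ATR mD/mD and 16.8 ± 2.33 CPM in ATR WT (SD, n = 3 each), a log2 fold change of -0.52 (SE 0.318; edgeR unadjusted p = 0.147, adjusted p = 0.9999). Without ATR mD/mD 3 the change was -0.95 (unadjusted p = 0.00224, adjusted p = 0.638, edgeR). That fit leaves ATR mD/mD with no library above a hair level of 7, so genotype and hair level cannot be told apart in it. In it 1016 of 14484 genes had an unadjusted p under 0.05 (edgeR), against 240 with all libraries. S100b was also the 1 gene of the 8 that was higher in all 3 libraries with a hair level above 7, at 16.1 to 19.4 CPM, than in the other 3, at 8.35 to 14.9 CPM. Dip2a overlaps S100b on the opposite strand, and the library kit does not mark strand, so reads in the overlap cannot be assigned.

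Egfl8 and Cdh19 were the remaining lineage markers. Egfl8 (chromosome 17, 34613349 to 34615971, minus strand), which encodes a secreted protein with EGF-like domains, was at 9.95, 12.6 and 16.9 CPM in ATR mD/mD 1, 2 and 3 and at 16.3, 17.2 and 10.9 CPM in ATR WT 1, 2 and 3. ATR mD/mD 3 and ATR WT 1 and 2 were high and the others lower, and the log2 fold change was -0.17 (SE 0.27; edgeR adjusted p = 0.9999). Agpat1 overlaps the end of Egfl8 on the opposite strand, and Gm20460, a processed transcript (34614484 to 34627349), overlaps it on the same strand.
Cdh19 (chromosome 1, 110888326 to 110977584, minus strand), a cadherin of Schwann cell precursors and neural crest cells, was at 4.69, 5.15 and 2.35 CPM in ATR mD/mD 1, 2 and 3 and at 2.54, 5.54 and 7.70 CPM in ATR WT 1, 2 and 3. It was lowest in ATR mD/mD 3 and ATR WT 1, the libraries in which Erbb3 was lowest as well. The log2 fold change was -0.37 (SE 0.481; edgeR adjusted p = 0.9999), and it was 0.0013 without ATR WT 3 and -0.69 without ATR WT 1.

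**Figure D3:**
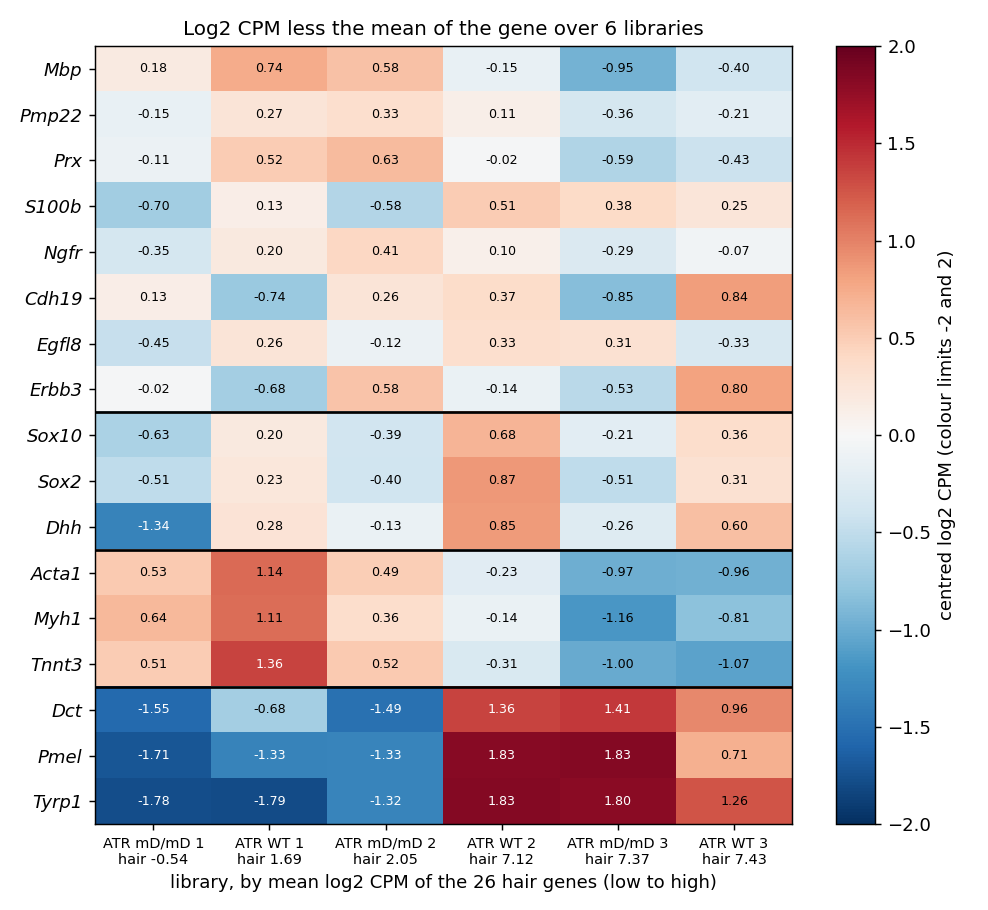
Log2 CPM of each gene less its mean over the 6 libraries, with libraries ordered along the x axis from the lowest hair level (-0.54, ATR mD/mD 1) to the highest (7.43, ATR WT 3); rows are the 8 genes, 3 other Schwann lineage genes, 3 muscle genes and 3 pigment genes, and colours saturate at the limits of the scale. Mbp and Prx are low together in ATR mD/mD 3 and ATR WT 3, as are the muscle genes, whereas the pigment genes are high in the 3 libraries on the right.

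Along the hair level, the 8 genes fell on both sides. Mbp was lower and S100b higher in all 3 libraries with a hair level above 7, and the other 6 overlapped. Among all 14484 genes, 17.1% were lower in all of these 3 libraries and 19.6% higher, so 1 of 8 in each direction is no more than the share of all genes. Of the 14 measured genes of the peripheral myelin list, which holds Mbp, Pmp22 and Prx, 7 were lower in those libraries and 0 higher. Outside the 8, 11 of 35 measured genes of the pathway lists were lower there and 4 higher. Skeletal muscle and blood vessel markers were low in the same libraries as Mbp. All 10 muscle genes were lower in the libraries with a hair level above 7, and their summed level was 24649.7, 24893 and 7979 CPM in ATR mD/mD 1, 2 and 3 and 38138, 14725 and 9237 CPM in ATR WT 1, 2 and 3. Acta1, muscle actin, was at 6925, 6763 and 2444 CPM in ATR mD/mD 1, 2 and 3 and at 10559, 4103 and 2469.9 CPM in ATR WT 1, 2 and 3. Of 7 endothelial genes, 6 were lower in the libraries with a hair level above 7, with sums of 256 to 375 CPM in ATR mD/mD and 279 to 363 CPM in ATR WT. Pigment genes moved the other way, with 13 of 14 higher in those libraries. The exception was Sox10, which is on this list too. The pigment sums were 178 to 1063 CPM in ATR mD/mD and 236 to 1029 CPM in ATR WT. Fibroblast sums ran from 7567 to 16695 CPM in ATR mD/mD and from 14239 to 18106 CPM in ATR WT, lowest in ATR mD/mD 1, and fat cell sums from 4609 to 6124 and from 4120 to 5749 CPM in the same order. No marker of these 5 lists was at 0 in any library, and their part in the values of the 8 genes was not tested.

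Compared within the libraries above 7 and within those below 3, the genotype difference kept its sign in some genes and turned in others. The hair level still differed within the lower set, at -0.54 and 2.05 in ATR mD/mD 1 and 2 against 1.69 in ATR WT 1. Mbp was lower in the ATR mD/mD library of all 4 such pairs: in log2 CPM, ATR mD/mD 3 differed from ATR WT 2 and ATR WT 3 by -0.80 and -0.55, and ATR mD/mD 1 and 2 differed from ATR WT 1 by -0.57 and -0.16. Cdh19 and Erbb3 went opposite ways. For Cdh19 the differences were -1.22 and -1.69 above a hair level of 7, and 0.87 and 1.01 below 3. For Erbb3 they were -0.40 and -1.34 above 7, and 0.66 and 1.26 below 3. Egfl8 was mixed above 7, at -0.024 and 0.64, and lower in ATR mD/mD below 3, at -0.71 and -0.38. S100b differed by -0.83 and -0.71 among the libraries below 3 and by -0.13 and 0.13 among those above 7. With 1 library of a genotype at each level, these differences have no replicate check. With the hair level as a covariate over all libraries, the Mbp change was -0.51 (SE 0.25; edgeR unadjusted p = 0.0802, adjusted p = 0.993) and that of Erbb3 was 0.071 (SE 0.539; edgeR adjusted p = 0.999).

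**Figure D4:**
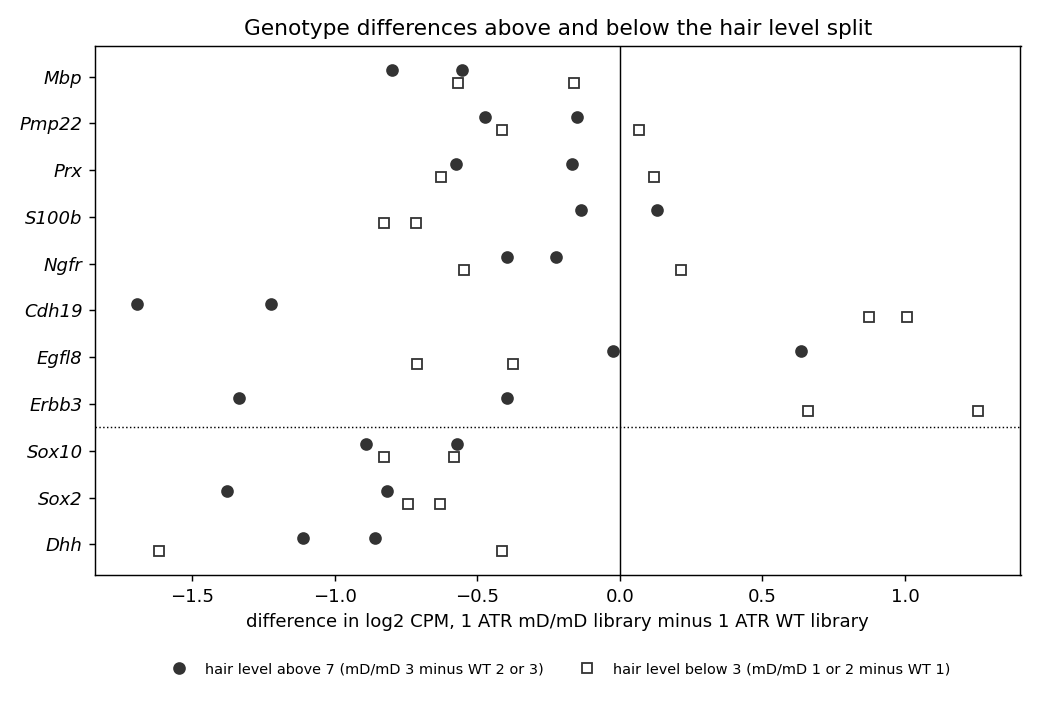
Difference in log2 CPM between 1 ATR mD/mD library and 1 ATR WT library on the same side of the hair level (x axis) for the 8 genes and 3 other Schwann lineage genes (rows); filled circles are pairs above 7, open squares pairs below 3. Cdh19 and Erbb3 lie on opposite sides of 0 at the 2 levels, whereas Mbp lies below 0 in all 4 pairs. Sox10, Sox2 and Dhh do so too, which follows from their groups not overlapping.

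The wider pathway was described from lists of peripheral myelin, Schwann lineage, neuregulin and neurotrophin genes. Outside the 8, they named 41 genes, of which 35 were measured, and 0 passed an adjusted p under 0.05. Of the 35, 23 had a fitted change below 0 and 12 above, with a median log2 fold change of -0.06 against 0.0070 for all genes. The 3 genes Sox10, Sox2 and Dhh were lower in every ATR mD/mD library than in any ATR WT library, which was so for 2.58% of all genes, and 0 genes lay wholly above. The same 3 had an unadjusted p under 0.05 (edgeR), against 1.66% of all genes in either direction. This is not separate from their lack of overlap.

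Sox10 (chromosome 15, 79154908 to 79165240, minus strand) had 17.6, 20.9 and 23.6 CPM in ATR mD/mD 1, 2 and 3 and 31.3, 43.8 and 35.0 CPM in ATR WT 1, 2 and 3. The groups did not overlap, and the log2 fold change was -0.83 (SE 0.183; edgeR unadjusted p = 0.00332, adjusted p = 0.9999). DESeq2 gave an adjusted p of 0.0476, past the threshold, and with 1 library left out the edgeR change ran from -0.93 to -0.68 with no adjusted p below 0.708. In the 4 pairs on the same side of the hair level the difference was -0.89, -0.57, -0.83 and -0.58. Its sign was fixed in advance, since the groups did not overlap. Sox10 is also a pigment cell gene. Of the 14 genes of the pigment list, which holds Sox10 itself, 13 had a fitted change below 0, with a median of -0.56. All 26 hair genes were below 0 as well, with a median of -0.74, against 0.0070 for all genes. As ATR WT 2 and 3 but only ATR mD/mD 3 lay above a hair level of 7, the genotypes are not balanced for it. Dct, a melanin enzyme, was at 50.6, 53.0 and 394 CPM in ATR mD/mD 1, 2 and 3 and at 92.5, 380 and 288 CPM in ATR WT 1, 2 and 3. Below a hair level of 3, Dct was lower in both ATR mD/mD libraries, by -0.87 and -0.80 in log2 CPM, as Sox10 was. Above 7 it was not lower in ATR mD/mD 3. The pigment genes Pmel and Tyrp1 were not lower in both libraries below 3. There ATR mD/mD 1 and 2 differed from ATR WT 1 by -0.38 and 0.0019 in Pmel and by 0.0066 and 0.46 in Tyrp1. The part of pigment cells in the Sox10 values was not tested.

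Dhh, the hedgehog ligand with which Schwann cells organise the nerve sheath, was at 2.63, 6.12 and 5.61 CPM in ATR mD/mD 1, 2 and 3 and at 8.16, 12.2 and 10.2 CPM in ATR WT 1, 2 and 3, a log2 fold change of -1.09 (SE 0.357; edgeR unadjusted p = 0.0203, adjusted p = 0.9999). Sox2, a factor of immature Schwann cells and of dermal papilla and Merkel cells, averaged 1.47 ± 0.0683 CPM in ATR mD/mD and 2.93 ± 0.755 CPM in ATR WT (SD, n = 3 each), a log2 fold change of -0.99 (SE 0.278; edgeR unadjusted p = 0.0102, adjusted p = 0.9999). These 2 genes and Sox10 had larger fitted changes than Mbp, at -0.08 (SE 0.453), in the fit without a covariate. With the hair level as a covariate, Mbp was at -0.51 (SE 0.25) and Sox10 at -0.70 (SE 0.15). In that fit Dhh was at -0.88 (SE 0.307) and Sox2 at -0.92 (SE 0.305). Whether the changes differ was not tested.

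**Figure D5:**
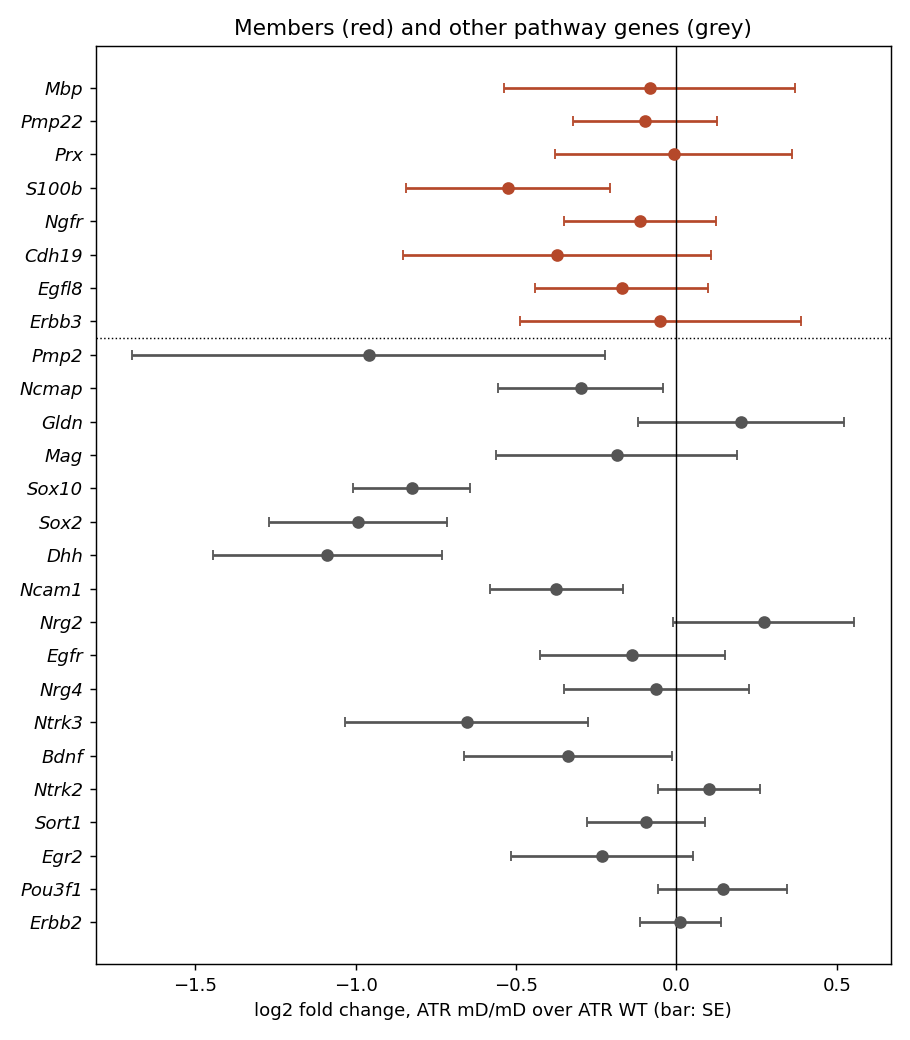
Log2 fold change of ATR mD/mD over ATR WT (x axis, bars are SE) for the 8 genes in red and 18 other pathway genes in grey. The bars of 7 of the 8 cross 0, and none of the 26 genes passed an adjusted p under 0.05 in edgeR.

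The other named pathway genes did not pass the test either. Egr2, the partner of Sox10 at myelin genes and also an immediate early and hair follicle gene, was at 106 ± 28.6 CPM in ATR mD/mD and 124 ± 34.2 CPM in ATR WT (SD, n = 3 each), a log2 fold change of -0.23 (SE 0.285). Pou3f1, which promotes the onset of myelination and is also transcribed in epidermis, had 0.14 (SE 0.202). Among myelin genes, Pmp2, a fatty acid carrier, had -0.96 (SE 0.738), the myelin membrane gene Ncmap -0.30 (SE 0.257), and Gldn, which clusters sodium channels at nodes, 0.20 (SE 0.321). Mag had -0.19 (SE 0.375). The adhesion gene Ncam1 had -0.38 (SE 0.207). Among ligands and receptors, Nrg2 had 0.27 (SE 0.283), Nrg4 -0.06 (SE 0.288) and Egfr -0.14 (SE 0.288). The neurotrophin receptor Ntrk2 had 0.10 (SE 0.158), Ntrk3 -0.65 (SE 0.379), the ligand Bdnf -0.34 (SE 0.325) and the sorting receptor Sort1 -0.09 (SE 0.184). Neuronal cell bodies lie outside skin, and of 11 neuronal markers 4 were measured, with sums of 15.6 to 30.3 CPM in ATR mD/mD and 14.5 to 33.5 CPM in ATR WT.

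The mean pattern of the 8 genes, as centred log2 CPM, was -0.18, 0.26 and -0.36 in ATR mD/mD 1, 2 and 3 and 0.085, 0.14 and 0.058 in ATR WT 1, 2 and 3. It was highest in ATR mD/mD 2 and lowest in ATR mD/mD 3. By the smallest root mean square difference over the 6 libraries, the genes nearest to it were Pias4 (0.0386), Sema3g (0.0714), C2cd2l (0.0716), Kctd7 (0.0740) and Mars2 (0.0742), given as a description. All 5 varied little, as the mean pattern does, and none is on the lists of Schwann cell genes.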

How the data were processed

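Whole skin was measured by RNA sequencing in 3 ATR mD/mD and 3 ATR WT libraries. Per the labels' protocols, mRNA was selected with oligo dT beads and the TruSeq RNA v2 protocol, which does not mark strand, was followed. Per the submitters' processing notes, FastQC, TopHat2 2.0.12 and edgeR were used on build mm10, while the read counter, annotation and low-count filter are not stated in these sources. The authors deposited raw counts per gene and library, and beside them their own log2 fold change, average log2 CPM, p-value and adjusted p-value, which were not used for any result here.

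The rows without a gene (4.93% to 5.72% of counts) were left out. Counts were scaled by TMM and tested with edgeR 4.0.16 (R 4.3.3), quasi-likelihood, no covariate, and p-values were adjusted over 14484 genes. filterByExpr removed 0 genes. SE is the absolute log2 fold change over the square root of F, and log2 CPM used a prior count of 2. The test was checked on simulated counts with a low spread between libraries. That check does not show which changes the test could find at the spread of these libraries. Alternatives were RLE factors, no filter, 1 CPM in 3 samples, DESeq2 1.42.0, limma-voom (limma 3.58.1), a replicate block, covariates for the hair and Y-linked levels, and leaving out each library. Library pairs within a group differed beyond sampling noise (chi-square per degree of freedom at least 55.3). Positions and exon lengths are from GENCODE M21 (GRCm38, the same build).

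The 8 genes and all lists were chosen with earlier results of these data known. Named genes were the 8, Sox10, Egr2, Pou3f1 and Erbb2, the 4 smallest p of each pathway list, the 5 nearest genes, and up to 3 abundant markers of other cell types. Some genes of these lists are not reported here and are in no count of them.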

Additional observations from a re-analysis of the deposited data

How the results depend on the processing

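No setting moved the count of called Schwann cell and myelin genes from 0 of 8, whether RLE factors, no filter, 1 CPM in 3 samples, DESeq2, limma-voom, the replicate block, either covariate or leaving out any 1 library. As the main filter and the 1 CPM filter each removed 0 genes, the no filter and 1 CPM settings repeat the main fit. They could not change any value, here or in the counts below. The median log2 fold change of the 8 genes was -0.11 with all libraries and -0.24 with the hair covariate. With 1 library left out it ran from -0.39 (without ATR mD/mD 2) to 0.022 (without ATR mD/mD 3). The number of all genes called was 7, 39 with DESeq2, 4 with the Y-linked covariate and 4 to 10 with 1 library left out, and the cause was not tested. Same-numbered libraries had correlations of deviations of 0.63, -0.51 and 0.57. Of these pairs, only ATR mD/mD 2 and ATR WT 2 lay on opposite sides of the hair level. Whether the replicate numbers pair the libraries therefore cannot be told from these values. The fit with the replicate block called 6 genes in all and gave a median of -0.14 for the 8. Over 26 named genes and 14 settings, 329 of 364 log2 fold changes kept their direction and their side of the threshold and 34 changed sign. Sox10 alone crossed it, in DESeq2.

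Signs turned for Erbb3 with the replicate block (0.035), the hair covariate (0.071) and the Y-linked covariate (0.18). With the hair covariate they also turned for Gldn (-0.10), Egfr (0.11), Ntrk2 (-0.028) and Erbb2 (-0.039), and with the Y-linked covariate for Cdh19 (0.043), Nrg4 (0.10) and Erbb2 (-0.018). With 1 library left out, the log2 fold change ran from -0.43 to 0.35 for Mbp, -0.41 to 0.29 for Prx, -0.32 to 0.043 for Pmp22, -0.40 to 0.027 for Ngfr, -0.38 to 0.45 for Erbb3, -0.69 to 0.0013 for Cdh19 and -0.41 to 0.070 for Mag. It ran from -0.45 to 0.061 for Egfr, -0.22 to 0.18 for Nrg4, -0.0061 to 0.24 for Ntrk2, -0.030 to 0.31 for Pou3f1, -0.037 to 0.087 for Erbb2 and -0.21 to 0.053 for Sort1. Of the 8 genes, depth limits Cdh19 most, with 82 to 376 counts per library.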
